A study of Homo sapiens with 12 samples.

Results

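The KAP1 gene TRIM28, its paralogs TRIM24 and TRIM33, and the heterochromatin protein 1 (HP1) genes CBX1, CBX3 and CBX5 were followed in RNA-Seq of HCT116 cells, a human colorectal carcinoma line. They were chosen by name, with earlier results of these data known. All 6 were measured among the 19901 protein-coding genes of the count table. All 6 were also among the 13093 genes that passed a minimum of 10 counts in at least 6 libraries.

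KAP1 (also TIF1β) belongs to the transcriptional intermediary factor 1 (TIF1) family, whose members join a RING, B-box and coiled-coil module to a PHD finger and a bromodomain. KRAB zinc finger proteins bring KAP1 to DNA, where it recruits the H3K9 methyltransferase SETDB1, the NuRD deacetylase complex and HP1, which binds methylated H3K9 and holds the chromatin silent. KAP1 is also found at promoters of active genes. The HP1 proteins are chromobox proteins that dimerize and bind partners through a chromoshadow domain.

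All 12 libraries came from KAP1_dTAG_CloneD5, which is 1 clone, so the controls carry the same degradable tag on KAP1 as the treated cells. Serum was withheld for 48 h, with DMSO (the solvent) or dTAG present over the final 8 h. RNA was then taken without serum (DMSO-S0, dTAG-S0) or after 30 min of serum (DMSO-S30, dTAG-S30), with 3 replicates in each group. The dTAG molecule links the tagged protein to the CRBN ubiquitin ligase, so that the protein and not its mRNA is degraded. TRIM28 reads therefore do not check the dTAG labels, and reads from the inserted tag are not part of the hg38 gene. Untagged HCT116 cells were not analysed here.

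Library totals ran from 20537682 to 26278707 counts, of which 7.97 to 9.37% were ERCC spike-in RNA. The serum labels matched FOS, an immediate early gene, at 5.48 ± 0.821 CPM (counts scaled to a common library size) in DMSO-S0 and 485 ± 43.9 in DMSO-S30 (SD, n = 3). Of 10 colorectal epithelium markers 6 passed the count minimum, among them EPCAM at 252 to 284 CPM, while KRT20, CDX1, VIL1 and LGR5 reached at most 7 counts in a library. The summed epithelium list was higher with serum without overlap, at 1154 to 1207 CPM in DMSO-S0 and 1324 to 1420 in DMSO-S30, and at 1177 to 1326 in dTAG-S0 and 1381 to 1580 in dTAG-S30. Of the blood markers only PTPRC passed, at up to 35 counts. Of the fibroblast and endothelium markers only COL1A1 passed. The summed list moved with serum, from 14.0 to 16.4 CPM in DMSO-S0 to 79.6 to 86.0 in DMSO-S30, and from 12.5 to 15.4 in dTAG-S0 to 66.3 to 78.2 in dTAG-S30, while COL3A1, PDGFRB and PECAM1 stayed at or under 15 counts. In such bulk RNA, fewer cells of a type and less RNA per cell cannot be told apart. DMSO-S0 replicate 1 stood apart from the other libraries in the factor of unwanted variation estimated from the ERCC counts, at 0.714 against -0.417 to 0.308, and results that rest on it are also given without it.

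TRIM28 (ENSG00000130726.11) lies on hg38 chr19:58544091-58550722 on the plus strand. TRIM24 (TIF1α, ENSG00000122779.17), a coactivator of nuclear receptors and a ligase for p53, lies on chr7:138460334-138589993, plus strand. TRIM33 (TIF1γ, ENSG00000197323.11), a ligase in TGF-β signaling, lies on chr1:114392777-114511160, minus strand. CBX5 (HP1α, ENSG00000094916.15) lies on chr12:54230940-54280133, minus strand, CBX1 (HP1β, ENSG00000108468.14) on chr17:48070052-48101521, minus strand, and CBX3 (HP1γ, ENSG00000122565.18) on chr7:26201162-26213356, plus strand. Counts covered the whole gene, exons and introns together, so mature and unspliced RNA were not separated.

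CBX3 and CBX5 each start beside a gene of an hnRNP splicing factor on the other strand. CBX3 overlaps HNRNPA2B1 by 368 bp, with the starts 367 bp apart, and CBX5 starts 60 bp from HNRNPA1. The promoters of these 2 HP1 genes are shown because they are the stretches shared with a neighbor that is counted separately. They come from RefSeq (GRCh38.p14, 250 bases before to 50 after a start), whose table held 4 of the 6 genes (TRIM33, CBX1, CBX3 and CBX5), and capitals mark the GC box, GGGCGG read on either strand. The CBX3 window lies inside the counted gene, which starts at 26201162, so its RefSeq start is downstream of that start. The overlap of 368 bp with HNRNPA2B1 is that of the gene models counted.
CBX3, chr7:26201193-26201492, plus strand: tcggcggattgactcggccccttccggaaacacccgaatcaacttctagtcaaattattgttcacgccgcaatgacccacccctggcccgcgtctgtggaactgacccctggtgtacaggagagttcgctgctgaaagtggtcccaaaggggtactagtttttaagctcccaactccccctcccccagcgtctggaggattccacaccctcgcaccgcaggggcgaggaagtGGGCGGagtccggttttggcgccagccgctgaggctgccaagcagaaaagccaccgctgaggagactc
CBX5, chr12:54280073-54280372, minus strand: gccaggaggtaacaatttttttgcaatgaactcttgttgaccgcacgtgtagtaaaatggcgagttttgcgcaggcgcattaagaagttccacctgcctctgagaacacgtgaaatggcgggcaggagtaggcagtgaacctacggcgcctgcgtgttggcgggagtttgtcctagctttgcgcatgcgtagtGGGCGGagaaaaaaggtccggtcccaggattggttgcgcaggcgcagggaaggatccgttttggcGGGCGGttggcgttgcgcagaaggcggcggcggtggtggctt

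The GC box occurred once or more in 45.0% of the 35116 promoters of this table. It was found at 1 position in CBX3, at 2 positions in CBX5, at 2 in TRIM33 and at 0 in CBX1. The letters of the cyclic AMP response element TGACGTCA, present in 1.85% of all promoters, of the AP-1 element (TGAGTCA or TGACTCA), in 4.95%, and of the serum-response CArG box, in 1.29%, were found at 0 positions in these 4 windows on either strand. CBX5 held the CCAAT letters at 1 position, against 34.6% of all promoters with at least 1. The number of CpG pairs was 44 in TRIM33, 38 in CBX1, 25 in CBX5 and 19 in CBX3, against a median of 14.

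The first question was how strongly each gene was expressed. Levels between genes were compared per kb of gene span, as the mean CPM per kb over the 12 libraries. CBX3 was highest at 24.3 CPM per kb, followed by TRIM28 at 15.7, CBX5 at 9.49, CBX1 at 5.39, TRIM33 at 1.46 and TRIM24 at 0.552. On this scale the ranges of neighbors in the order did not overlap. This order depended on the length used, since exons made up 64.9% of the span of TRIM28 but 7.17% of TRIM24, 8.11% of TRIM33 and 9.67% of CBX1. The same whole-gene counts, intron reads included, were also divided by the length of merged exons (GENCODE v44). This scale raises genes that are mostly intron the most, so it is not a level of mature mRNA. On it, CBX3 at 61.2 and CBX1 at 55.7 came first with overlapping ranges. CBX5 at 31.0, TRIM28 at 24.2, TRIM33 at 18.0 and TRIM24 at 7.70 followed, each without overlap with the gene before it. CBX3 was thus the highest HP1 gene on both scales, and TRIM24 the lowest of TRIM28, TRIM24 and TRIM33. TRIM28 stood above CBX5 and CBX1 on the first scale and below both on the second.

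**Figure D1:**
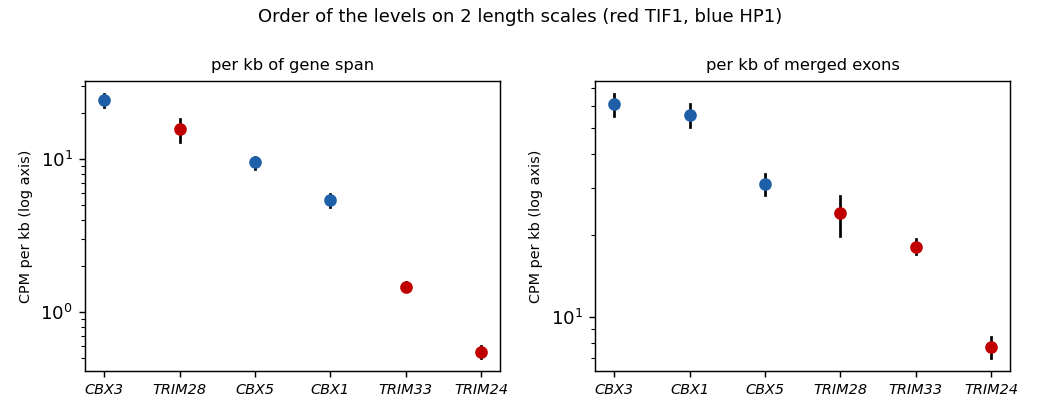
Mean level of each gene over the 12 libraries in CPM per kb, on a log axis, per kb of gene span (left) and per kb of merged exons (right). Vertical lines run from the lowest to the highest library. Intron reads are in the counts on both sides. TRIM28 stands at 15.7 on the left and 24.2 on the right, and CBX1 moves up from 5.39 to 55.7.

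Within the HP1 family the proportions per kb of span were close between groups. CBX3 made up 61.5 to 62.4% of the HP1 total as group means, CBX5 23.5 to 24.6% and CBX1 13.0 to 14.1%. The TIF1 total is that of TRIM28, TRIM24 and TRIM33, without the relative TRIM66. TRIM28 made up 87.8% ± 0.368 of it in DMSO-S0, 89.6% ± 0.654 in DMSO-S30, 87.2% ± 0.756 in dTAG-S0 and 89.4% ± 1.32 in dTAG-S30 (SD, n = 3). The share of TRIM24 was lower with serum, at 3.44% in DMSO-S0 and 2.77% in DMSO-S30, and at 3.57% in dTAG-S0 and 2.83% in dTAG-S30. That of TRIM33 was 8.76% and 7.61% in DMSO, and 9.23% and 7.75% in dTAG. The size of these shares depends on the length used. Per kb of merged exons, with intron reads still in the counts, the levels were 24.2 CPM for TRIM28, 18.0 for TRIM33 and 7.70 for TRIM24. On that scale CBX3 was at 61.2, CBX1 at 55.7 and CBX5 at 31.0.

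The next question was whether serum changed these transcripts. TRIM28, which encodes the corepressor itself, was measured at 99.1, 91.5 and 100.2 CPM in the DMSO-S0 replicates and at 120.4, 109.0 and 114.6 in DMSO-S30. In dTAG-S0 it was 95.2, 85.5 and 97.2 CPM, and in dTAG-S30 103.0, 115.7 and 117.4. Every library with serum stood above every library without serum. TRIM28 rose by 0.25 on the log2 scale in DMSO-treated cells (SE 0.0676, 95% interval 0.11 to 0.39, a change of 19.0%, edgeR adjusted p = 0.00722). In dTAG-treated cells it rose by 0.27 (SE 0.0658, interval 0.13 to 0.40, a change of 20.5%, adjusted p = 0.00365). Averaged over both treatments the change was 19.8% (log2 0.26, SE 0.0460, adjusted p = 5.57e-05). The call in DMSO-treated cells was lost without DMSO-S30 replicate 1 (log2 0.21, adjusted p = 0.0526). Without DMSO-S0 replicate 1 the change there was 0.28 (adjusted p = 0.00238). The summed epithelium markers and COL1A1 moved the same way with serum in these libraries, and their part in the TRIM28 result was not tested.

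The call on TRIM28 was 1 of 6 genes in DMSO-treated cells, where 26.3% of the 13093 genes tested were called, and 1 of 6 in dTAG-treated cells, where 24.5% were called. These shares are not above the background. Of all calls, 35.0% were of higher genes with serum in DMSO and 37.2% in dTAG, and these became 61.4% and 61.7% under TMM scaling. The median of all genes was -0.07 and -0.06 on the log2 scale, and that of the 6 genes -0.04 and -0.07. With the criterion that libraries of the groups do not overlap, 3 of the 6 genes were separated in DMSO (TRIM28 higher, TRIM24 and CBX1 lower), beside 44.4% of all genes. In dTAG 2 of the 6 were separated (TRIM28 higher, CBX3 lower), beside 37.5% of all genes.

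CBX1 (HP1β) was measured at 183.9, 178.0 and 171.2 CPM in DMSO-S0 and at 164.3, 160.7 and 152.7 in DMSO-S30. In dTAG-S0 it was 175.1, 168.9 and 186.5 CPM, and in dTAG-S30 160.1, 171.8 and 160.8. The groups were separated in DMSO-treated cells and overlapped in dTAG-treated cells. Neither comparison passed the test, with a log2 change of -0.15 in DMSO (interval -0.27 to -0.02, adjusted p = 0.0694) and -0.11 in dTAG (interval -0.23 to 0.00391, adjusted p = 0.153). Averaged over treatments CBX1 fell by 0.13 on the log2 scale (SE 0.0401, interval -0.21 to -0.05, edgeR adjusted p = 0.0107), a change of -8.60%. This call was lost under TMM scaling (adjusted p = 0.236), with ERCC library sizes (0.220), with DESeq2 (0.131) and without DMSO-S0 replicate 1 (0.0531).

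TRIM24 was measured at 72.7, 71.6 and 78.4 CPM in DMSO-S0 and at 68.5, 71.2 and 67.9 in DMSO-S30. In dTAG-S0 it was 71.9, 75.1 and 74.8 CPM, and in dTAG-S30 72.0, 69.3 and 65.5. The groups were separated in DMSO by less than 1 CPM and overlapped in dTAG. Averaged over treatments TRIM24 fell by 0.10 on the log2 scale (SE 0.0420, interval -0.19 to -0.02, adjusted p = 0.0479), a change of -6.93%. That call was lost under TMM scaling (adjusted p = 0.526), with ERCC library sizes (0.583), with DESeq2 (0.479) and without the count filter (0.178). It was also lost in 7 of the 12 fits that left out a single library, with adjusted p up to 0.146 (without DMSO-S0 replicate 3), and held without DMSO-S0 replicate 1 (log2 -0.13, adjusted p = 0.0233). With serum averaged over treatments, 3 of the 6 genes passed (TRIM28, TRIM24 and CBX1), where 43.2% of all genes passed.

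CBX3 (HP1γ), the HP1 protein also found over transcribed genes, was measured at 311.9, 322.1 and 288.3 CPM in DMSO-S0 and at 291.0, 309.0 and 287.3 in DMSO-S30. In dTAG-S0 it was 298.7, 312.4 and 298.8 CPM, and in dTAG-S30 267.2, 296.0 and 274.7. The groups overlapped in DMSO and were separated in dTAG. The log2 difference with serum was -0.04 in DMSO (interval -0.16 to 0.09, adjusted p = 0.678) and -0.13 in dTAG (interval -0.25 to -0.00788, adjusted p = 0.113), and neither passed. CBX5 (HP1α), the HP1 protein most concentrated in heterochromatin, ranged from 440.5 to 502.1 CPM over the 6 libraries without serum and from 422.5 to 506.8 over the 6 with serum. TRIM33 ranged from 166.4 to 181.2 CPM without serum and from 163.1 to 186.7 with serum. For both genes the groups overlapped, and the averaged log2 differences were -0.04 for CBX5 (interval -0.14 to 0.05, adjusted p = 0.477) and -0.00960 for TRIM33 (interval -0.09 to 0.07, adjusted p = 0.869).

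**Figure D2:**
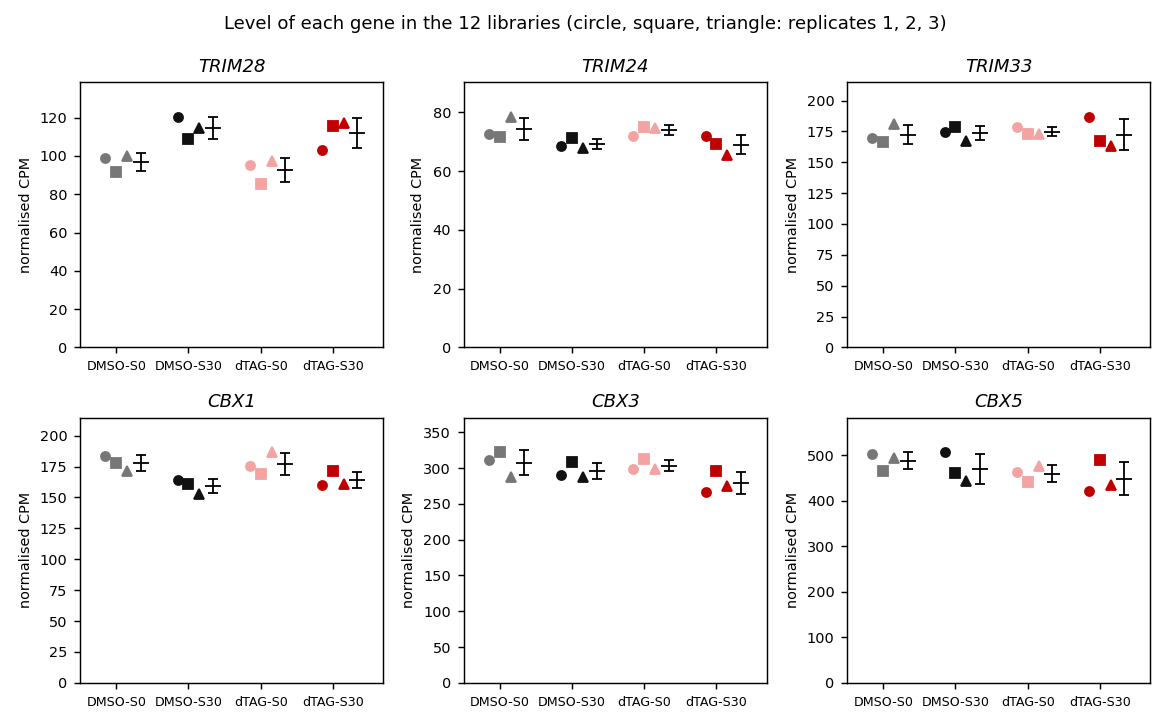
Normalised CPM of each gene in the 12 libraries, in 4 groups of 3. Symbols are single libraries and black bars the mean with SD. TRIM28 sits at 85.5 to 100.2 CPM without serum and at 103.0 to 120.4 with serum, whereas the groups of TRIM33 and CBX5 overlap.

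The ratio of TRIM28 to another gene within the same library needs no scaling between libraries, and is given here as a description. The ratio of TRIM28 to CBX5 counts lay between 0.194 and 0.205 in the 6 libraries without serum and between 0.236 and 0.270 in the 6 with serum. Against CBX1 it lay between 0.506 and 0.585 without serum and between 0.643 and 0.751 with serum. Against CBX3 the ranges were 0.274 to 0.348 and 0.353 to 0.427, and against TRIM24 1.14 to 1.36 and 1.43 to 1.79. In these 4 ratios the libraries with serum stood above those without. Against TRIM33 the ranges overlapped, at 0.495 to 0.584 without serum and 0.552 to 0.720 with serum, where dTAG-S30 replicate 1 was lowest of the latter. All of these ratios share TRIM28, whose CPM was itself separated by serum, so they are not separate results. The share of other gene pairs separated in this way was not computed.

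**Figure D3:**
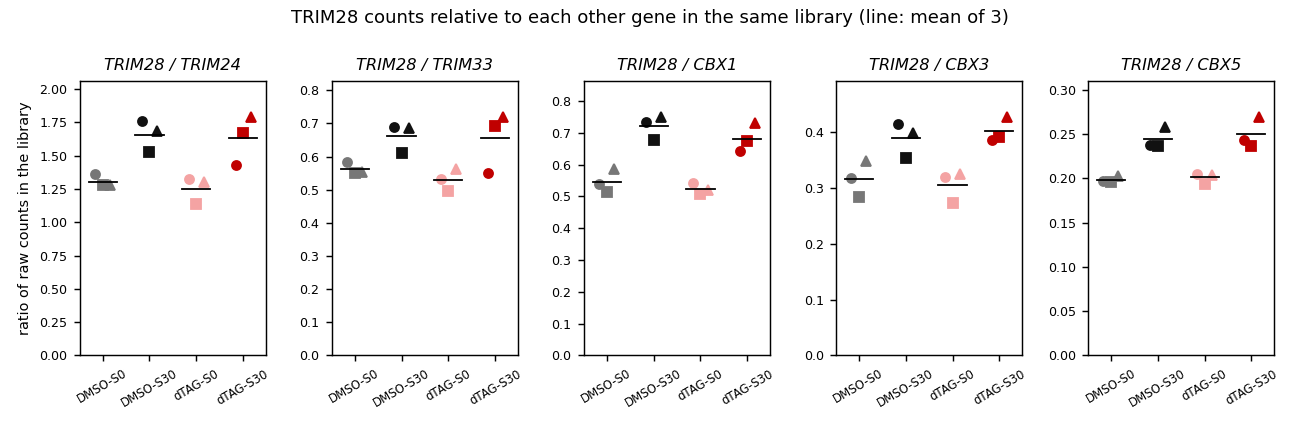
Ratio of raw TRIM28 counts to the raw counts of each other gene in the same library, for the 4 groups. Symbols are replicates 1 (circle), 2 (square) and 3 (triangle), lines the group means. The ratio to CBX5 lies at 0.194 to 0.205 without serum and 0.236 to 0.270 with serum.

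The central comparison of the study was dTAG against DMSO, made to deplete the KAP1 protein, which these libraries do not measure. No untagged cells given dTAG were analysed here, so effects of the dTAG molecule and of KAP1 loss cannot be told apart. Here 0 of the 6 genes were called by edgeR either without serum, where 1.31% of all genes were called, or with serum, where 1.23% were, and 0 of these 12 tests had an unadjusted p under 0.05. DESeq2 and the 8 other settings also called 0. Libraries of dTAG and DMSO overlapped for all 6 genes in both conditions, beside 17.7% of all genes that did not overlap without serum and 15.7% with serum. TRIM28 mRNA differed by -0.06 on the log2 scale without serum (interval -0.20 to 0.08, adjusted p = 0.787) and by -0.04 with serum (interval -0.18 to 0.10, adjusted p = 0.888). Averaged over serum its difference was -3.45%, with an interval from -9.57% to 3.09%.

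The paralogs and HP1 genes also gave intervals that bound their differences. Averaged over serum, where 4.47% of all genes were called and 0 of these 6, TRIM24 differed by -0.272% (interval -6.06% to 5.88%) and TRIM33 by 0.509% (-5.10% to 6.45%). CBX1 differed by 1.18% (-4.44% to 7.12%), CBX3 by -3.66% (-9.17% to 2.18%) and CBX5 by -5.13% (-11.2% to 1.32%). Group means of CBX5 were 488 ± 18.7 CPM in DMSO-S0 and 460 ± 18.1 in dTAG-S0, and 471 ± 32.4 in DMSO-S30 and 449 ± 35.5 in dTAG-S30. The adjusted p of these 5 averaged differences ran from 0.417 (CBX5) to 0.974 (TRIM24), which does not show that the levels were equal.

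The interaction asked whether the serum effect differed between dTAG and DMSO. It was called for 0 of the 6 genes and for 0.0382% of all genes, with an unadjusted p under 0.05 for 0 of the 6. For TRIM28 the difference of the serum effects was 0.02 on the log2 scale (interval -0.18 to 0.22), and the farthest from 0 was CBX3 at -0.09 (interval -0.27 to 0.09), both with adjusted p = 0.9999.

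**Figure D4:**
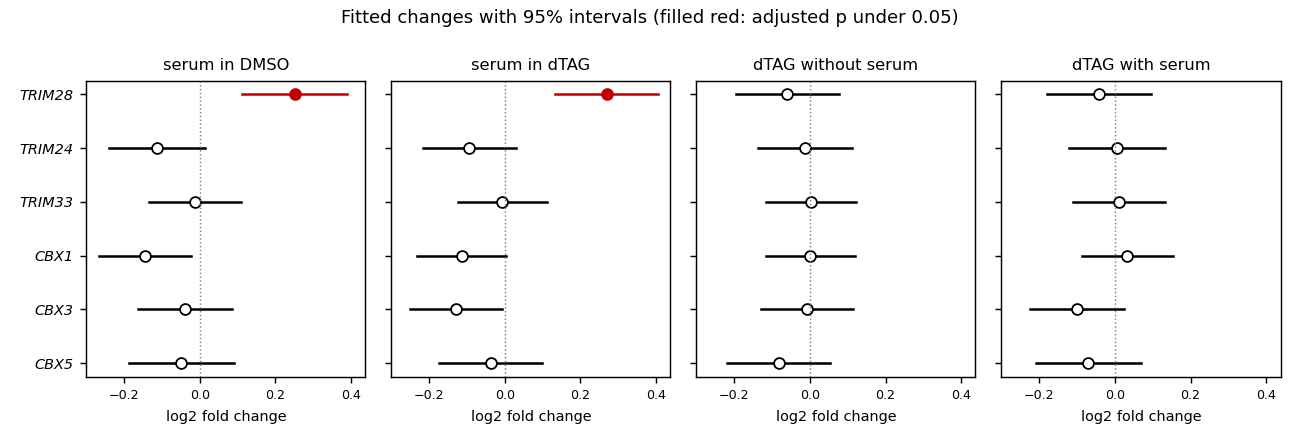
Fitted log2 fold changes of the 6 genes in the 4 pairwise comparisons, with 95% intervals. Filled red points passed at adjusted p under 0.05. TRIM28 passed in both serum comparisons, at 0.25 and 0.27, and all intervals for dTAG cross 0.

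Counts of the neighbors were checked because of the shared starts. HNRNPA2B1 had a mean of 17625 counts, and its group means ran from 799 to 831 CPM. HNRNPA1 had a mean of 4358 counts and group means from 198 to 204 CPM. Neither neighbor was called in any of the 7 comparisons, and their averaged log2 differences with serum were -0.00456 and 0.03. The counting kept strands apart at least in part. All 436 genes that lie within another gene on the same strand were at 0 counts in every library, against 111 of 608 within a gene on the other strand.

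Genes whose log2 CPM ran most like each member over the 12 libraries were sought among 11639 genes, as a description of libraries that share their depth and scaling. TRIM28 ran closest to FLNC (Pearson r = 0.986, Spearman rho = 0.979), which encodes filamin C, and to H1-10 (r = 0.981, rho = 0.958), a linker histone gene. CBX1 ran closest to XPO5 (r = 0.963, rho = 0.951), an exportin gene, and CBX3 to TMEM106B (r = 0.959, rho = 0.937). TRIM24 ran closest to UBE2K (r = 0.923, rho = 0.909), a ubiquitin-conjugating enzyme gene, and CBX5 to CEP68 (r = 0.916, rho = 0.951). TRIM33 had the lowest such value, to PPP1R12A (r = 0.830, rho = 0.797). The biological coefficient of variation of the 6 genes lay between 0.0471 (TRIM24) and 0.0564 (CBX5).

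The HP1 genes share the chromobox with Polycomb genes such as CBX2, CBX6, CBX7 and CBX8, whose proteins bind H3K27 methylation. Of these, CBX8 rose with serum and CBX2, CBX6 and CBX7 were not called. CBX8 stood at 32.5 ± 1.14 CPM in DMSO-S0 and 75.1 ± 5.41 in DMSO-S30, and at 30.0 ± 2.67 in dTAG-S0 and 67.4 ± 3.58 in dTAG-S30 (SD, n = 3). Every library with serum stood above every library without serum. CBX8 rose by 1.21 on the log2 scale in DMSO (SE 0.0766, edgeR adjusted p = 1.06e-12) and by 1.17 in dTAG (SE 0.0748, adjusted p = 1.53e-12). The intervals of CBX1, CBX3 and CBX5 in the same comparisons lay between -0.27 and 0.10. COL1A1 moved with serum in the same libraries, and its part in this result was not tested.

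**Figure D5:**
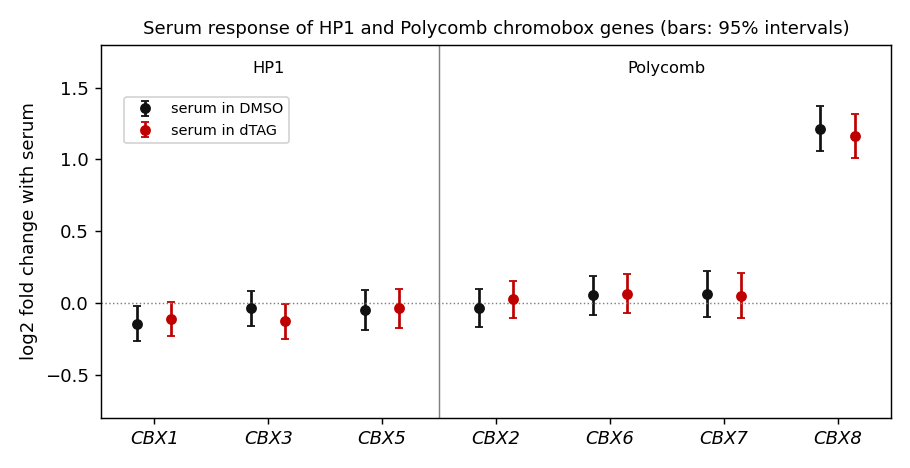
Log2 fold change with serum of HP1 genes (left) and Polycomb chromobox genes (right) in DMSO-treated (black) and dTAG-treated (red) cells, with 95% intervals. CBX8 at 1.21 and 1.17 stands above 0, and the HP1 genes at the left lie between -0.15 and -0.04.

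Partners of KAP1 and HP1 were read from 10 lists of 83 genes, of which 80 passed the count minimum. KDM4A was at 0 counts in every library. It is among the 436 genes that lie within another gene on the same strand, all of them at 0, so its expression cannot be read here. The nuclear receptor gene ESR1 had a mean of 5.33 counts. With serum 7 list genes rose and 11 fell in DMSO, together 22.5% against 26.3% of all genes, and 5 rose and 8 fell in dTAG, together 16.2% against 24.5%. This balance of directions depended on the scaling, being 15 up and 5 down in DMSO and 10 up and 2 down in dTAG under TMM, and 11 up and 6 down in DMSO and 13 up and 4 down in dTAG with DESeq2. It also depended on single libraries. In DMSO 3 rose and 7 fell without DMSO-S0 replicate 2, and 12 rose and 11 fell without DMSO-S0 replicate 1. In dTAG 4 rose and 4 fell without dTAG-S0 replicate 2, and 8 rose and 10 fell without DMSO-S0 replicate 1. Beside CBX8, KDM7A, a demethylase of H3K9 and H3K27, rose by 0.48 in DMSO (adjusted p = 4.26e-07) and 0.49 in dTAG (1.83e-07). The largest falls in DMSO were in the H3K9 demethylase gene KDM4D (log2 -0.77, adjusted p = 0.000763), in SETDB2 of the SETDB1 family (-0.39, 0.000340) and in RBX1, a RING subunit of cullin ligases including that used by dTAG (-0.30, 0.00264). In dTAG they were in KDM4D (-0.54, 0.0125), in MTA3 of NuRD (-0.28, 0.00152) and in SETDB2 (-0.27, 0.00954). All of these kept their direction in every alternative. Among the falls, SETDB2 and KDM4D held their DMSO calls in all 21 alternatives, MTA3 its dTAG call in 20 and RBX1 its DMSO call in 19, and KDM4D and SETDB2 their dTAG calls in 18 each.

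By list under the upper-quartile scaling, 0 of 13 NuRD genes rose and 2 fell with serum in each treatment, with a median log2 difference of -0.04 in DMSO and 0.000549 in dTAG. Of 7 H3K9 methyltransferase genes and cofactors 1 fell in each, and SETDB1, the enzyme KAP1 recruits, fell by 0.12 averaged over treatments (adjusted p = 0.0118), a call held in 16 of 20 alternatives. The SETDB1 call was lost with ERCC library sizes (edgeR adjusted p = 0.366). Of 7 H3K9 demethylase genes tested, 2 rose and 2 fell in DMSO and 1 rose and 1 fell in dTAG. Of 13 HP1 binding partners 2 rose and 1 fell in DMSO and 1 rose in dTAG. Of 16 SUMO pathway genes, which act in KAP1 sumoylation, 1 fell in DMSO and 3 in dTAG. Of the 6 kinase and phosphatase genes that act on KAP1, 2 fell in DMSO, among them ATM (log2 -0.25, adjusted p = 0.00750), and 1 in dTAG. Of 7 partners of TRIM24 and TRIM33 tested, only the retinoic acid receptor gene RARA was called within a treatment, and it rose in both treatments (0.25 and 0.38). Averaged over treatments 2 of these 7 rose and 1 fell. Of the 5 genes of the CRBN ligase 2 fell in DMSO, CRBN (-0.24, adjusted p = 0.0125) and RBX1, and 0 were called in dTAG. ATM and CRBN held their DMSO calls in 18 and 17 of 21 alternatives. Both calls were lost with ERCC library sizes (edgeR adjusted p = 0.255 and 0.212). SETDB1, ATM, RARA and CRBN were named after their values were seen. Averaged over treatments 9 of the 80 rose and 21 fell, together 37.5%, against 43.2% of all genes. Under TMM 23 rose and 7 fell.

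With dTAG, 1 of the 80 list genes was called in each condition, 1.25% beside 1.31% and 1.23% of all genes, and it was ATF7IP both times. With serum 2 were called with DESeq2, and also without dTAG-S30 replicate 1. ATF7IP encodes the cofactor that stabilizes SETDB1. It stood at 154 ± 6.13 CPM in DMSO-S0 and 117 ± 2.87 in dTAG-S0, and at 144 ± 5.22 in DMSO-S30 and 109 ± 4.06 in dTAG-S30 (SD, n = 3). Each dTAG library lay below each DMSO library of the same serum condition. ATF7IP fell by 0.41 on the log2 scale without serum (SE 0.0556, edgeR adjusted p = 6.44e-05) and by 0.39 with serum (SE 0.0569, adjusted p = 0.000179), and it was called in all 21 alternatives of each comparison.

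Averaged over serum, 4 of the 80 fell with dTAG and 0 rose, 5% beside 4.47% of all genes. They were ATF7IP (log2 -0.40, adjusted p = 1.22e-07), the HP1-binding LRIF1 (-0.20, 0.0109), TRIM66 (-0.19, 0.0291) and KDM7A (-0.18, 0.00508). TRIM66 is a further TIF1 relative and binds HP1. Its group means were 104 ± 2.92 and 90.7 ± 4.72 CPM without serum and 92.9 ± 9.67 and 81.8 ± 8.10 with serum, for DMSO and dTAG in turn. Its call held in 11 of 20 alternatives, while LRIF1 and KDM7A each held in 19 and were lost with ERCC library sizes (adjusted p = 0.147 and 0.207). KDM7A is named although it came after the first 3 by size.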

How the data were processed

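RNA of 12 cultures (4 groups of 3) was depleted of ribosomal RNA with the KAPA RNA Hyper+RiboErase kit after ERCC spike-in RNA was added. The authors deposited raw counts per protein-coding gene over the whole gene, and the study's methods and the submitters' processing notes name FastQC 0.11.8, Trim Galore 0.6.4, STAR, featureCounts (Subread 1.6.3) and hg38. Groups came from the sample titles.

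From these counts, genes with at least 10 counts in 6 libraries were kept (13093 genes and 69 of 92 ERCC). Library sizes were scaled by the upper quartile, and 1 factor of unwanted variation was taken from the ERCC counts, as in the RUVg method, with R 4.3.3. The edgeR 4.0.16 quasi-likelihood test was fitted over all 4 groups plus that factor, with two-sided p-values and Benjamini-Hochberg adjustment across every gene tested, and a gene was called at adjusted p under 0.05. CPM are upper-quartile scaled without the factor, whereas fold changes include it. Averaged effects are means over both levels of the other treatment. Standard errors are Wald errors scaled by the quasi-likelihood variance, with 95% intervals. The script was tested on simulated data.

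The members and the 10 partner lists were chosen with earlier results of these data known. Partner genes named by rule were up to 3 higher and 3 lower called list genes of largest change per comparison. Some of these genes are not reported here. Likeness was Pearson's r of log2 CPM over genes with a mean of at least 50 counts. Replicates are biological per the study's methods, but nothing in the labels ties them to separate days. Per library, a member had 1372 to 11438 counts. DESeq2 1.42.0 and other alternatives were run, and exon lengths were added after seeing the data.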

Additional observations from a re-analysis of the deposited data

How the results depend on the processing

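TRIM28 kept its rise with serum under all scalings, tools and filters tried, at 0.24 to 0.33 on the log2 scale, and lost its call in DMSO only without DMSO-S30 replicate 1. The number of members called with serum in DMSO became 2 with no RUV factor, CBX1 being added, and ran from 0 to 2 over the libraries left out. With serum averaged over treatments it became 1 under TMM scaling, with ERCC library sizes and with DESeq2, and ran from 2 to 3 over the libraries left out. The number called with dTAG stayed at 0 under every alternative run. List genes called with serum in DMSO fell to 8 with ERCC library sizes against 18, in dTAG to 5 against 13 and averaged to 14 against 30, and rose to 25 in dTAG with only the libraries compared in the fit.

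The replicate block was run as an alternative. Deviations of same-numbered libraries correlated at -0.153 to 0.139 (median 0.0327, 18 pairs). Those of differently numbered libraries correlated at -0.199 to 0.256 (median -0.000203, 36 pairs). These values do not show a pairing by number, and they cannot tell whether libraries of the same number were handled together. With the replicate block TRIM28 rose by 0.25 with serum in DMSO (edgeR adjusted p = 0.00592), the count with serum averaged became 2, TRIM24 missing at adjusted p = 0.0516, and the other counts of members did not change. 

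Over all genes, ERCC library sizes gave 1766 calls for serum in DMSO against 3439, 1646 for serum in dTAG against 3203, 3428 for serum averaged against 5662, 76 for dTAG without serum against 171, 66 for dTAG with serum against 161 and 258 for dTAG averaged against 585. DESeq2 gave 258 for dTAG without serum and 290 with serum, and the likelihood ratio test 287 and 266. No count filter gave 306 and 290. The interaction gave 3 to 24 calls against 5. Leaving out single libraries gave 67 to 272 for dTAG without serum and 95 to 257 with serum. Calls of higher genes with serum in DMSO were 61.4% under TMM, 66.5% with ERCC library sizes and 58.5% with DESeq2, against 35.0%.

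Uncalled log2 differences near 0 changed sign as follows, and the cause was not tested. Under TMM scaling they were, for serum in DMSO TRIM33 0.0594, CBX3 0.0332 and CBX5 0.0232, serum in dTAG TRIM33 0.0552 and CBX5 0.0254, interaction TRIM33 -0.00419 and serum averaged TRIM33 0.0573 and CBX5 0.0243. With ERCC library sizes they were, for serum in DMSO TRIM33 0.0704, CBX3 0.0106 and CBX5 0.00911, serum in dTAG TRIM33 0.0209, dTAG without serum TRIM24 0.0222 and CBX3 0.0145, dTAG with serum TRIM24 -0.000991 and TRIM33 -0.00198, interaction TRIM24 -0.0232, TRIM33 -0.0495 and CBX5 -0.0112, serum averaged TRIM33 0.0456 and CBX5 0.00353 and dTAG averaged TRIM24 0.0106. With no RUV factor they were, for serum in DMSO TRIM33 0.00935, dTAG without serum CBX1 -0.00672, dTAG with serum TRIM24 -0.00581 and TRIM33 -0.0101 and interaction TRIM33 -0.0288. With 2 RUV factors they were, for dTAG without serum TRIM24 0.00278 and CBX1 -0.0172, interaction TRIM33 -0.0141 and dTAG averaged TRIM24 0.00539. Without the count filter they were, for serum in DMSO TRIM33 0.00875, serum in dTAG TRIM33 0.0103, dTAG without serum CBX1 -0.000259, dTAG with serum TRIM24 -0.000213 and serum averaged TRIM33 0.00952. With DESeq2 they were, for serum in DMSO TRIM33 0.0747, CBX3 0.0101 and CBX5 0.0138, serum in dTAG TRIM33 0.0328 and CBX5 0.0172, dTAG without serum TRIM24 0.00194, dTAG with serum TRIM24 -0.0110 and TRIM33 -0.0153, interaction TRIM24 -0.0130 and TRIM33 -0.0419 and serum averaged TRIM33 0.0538 and CBX5 0.0155. With only the libraries compared in the fit they were, for serum in DMSO TRIM33 0.00203. Over the libraries left out, differences that changed sign ran for serum in DMSO TRIM33 -0.0646 to 0.0263 and CBX3 -0.0919 to 0.0228, for serum in dTAG TRIM33 -0.0684 to 0.0272 and CBX5 -0.101 to 0.0152, for dTAG without serum TRIM24 -0.0488 to 0.0370, TRIM33 -0.0353 to 0.0358, CBX1 -0.0389 to 0.0361 and CBX3 -0.0558 to 0.0419, for dTAG with serum TRIM28 -0.0930 to 0.0307, TRIM24 -0.0323 to 0.0394, TRIM33 -0.0585 to 0.0515 and CBX1 -0.000587 to 0.0638, for interaction TRIM28 -0.0445 to 0.0999, TRIM24 -0.0438 to 0.0619, TRIM33 -0.0694 to 0.0550, CBX1 -0.00539 to 0.0748 and CBX5 -0.0492 to 0.0735, for serum averaged TRIM33 -0.0404 to 0.0139 and for dTAG averaged TRIM24 -0.0208 to 0.0151, TRIM33 -0.0238 to 0.0269 and CBX1 -0.00154 to 0.0352.

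The fit of only the libraries compared does not exist for the interaction and the averaged effects. The planned length alternative gave no separate value, since the length column equals the span within 1 bp. TRIM24, with the fewest counts (mean 1551), had a smaller SE for serum in DMSO (0.0617) than CBX5 with the most (mean 10096, SE 0.0678).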
